A study of Mus musculus with 59 samples.

Results

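The nuclear long noncoding RNAs described here are 5 mouse genes, Malat1, Neat1, Lncenc1, Kcnq1ot1 and Pvt1, of 39017 gene identifiers in the series. They were listed by name and chosen by measured values of these data: the level of Malat1, which separates the libraries of 1 RNA table into 2 sets, and the METTL3-over-input ratio at Lncenc1, which holds one of the highest METTL3 windows on chromatin. Those contrasts are therefore described without a test. Malat1, Neat1, Lncenc1 and Pvt1 were measured in all 35 RNA libraries, and Kcnq1ot1 was not analysed here at the RNA level. All 5 genes were followed in 24 chromatin immunoprecipitation (ChIP) libraries through the 5 kb windows that overlap them, 86 of 546202 windows. On mm10, Malat1 lies at chr19:5795690-5802672 (2 windows), Neat1 at chr19:5824708-5845480 (6 windows) and Lncenc1 at chr13:97434970-97497664 (14 windows). Kcnq1ot1 lies at chr7:143213111-143296547 (18 windows) and Pvt1 at chr15:62037986-62260215 (46 windows). Kcnq1ot1 lies inside the protein-coding gene Kcnq1, so its windows cannot be assigned to either gene alone. Malat1 also holds the small RNA Mascrna, Lncenc1 the pseudogene Gm8756 and Pvt1 the transcribed pseudogene Macroh2a3.

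Malat1 is an abundant, mostly unspliced RNA of nuclear speckles, the storage sites of splicing factors, and its 3′ end is formed by RNase P, which releases a tRNA-like small RNA. Neat1 is the scaffold of paraspeckles, nuclear bodies that hold RNA-binding proteins such as NONO and SFPQ. Lncenc1 is enriched in naive embryonic stem cells and is known as a partner of PTBP1 and HNRNPK at glycolysis genes. Kcnq1ot1 is transcribed from the paternal chromosome and silences neighbouring imprinted genes in cis. Pvt1 lies beside Myc and hosts microRNAs. DGCR8 and Drosha form the Microprocessor, which cuts microRNA hairpins out of nuclear transcripts. Dicer makes the next cut in the cytoplasm, and METTL3 is the catalytic subunit of the writer of N6-methyladenosine in RNA.

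All cells were 129xC57Bl6 hybrid embryonic stem cells grown on gelatin with LIF. The first RNA table holds 23 libraries of a DGCR8 Flox/Flox line that carries Rosa26:CRE and of a Drosha Flox/Flox line, whose label names no Cre. Each line was left untreated or received 0.5 µM 4-hydroxytamoxifen (4OHT) for 24, 48 or 96 h, with 2 libraries per group and 1 for Drosha 4OHT at 96 h. No library of cells without floxed alleles received 4OHT, so the drug and the loss of the gene cannot be told apart. The second RNA table holds 12 libraries of cells that carry Rosa26:BirA and FLAG/Avi-tagged DGCR8. They are 2 parental samples and 4 Mettl3 knockout lines (1d1, 3xU, 1d2 and 2c4d), each at 37 °C and after 1 h at 42 °C. In the ChIP tables, biotin-tagged DGCR8, Drosha, Dicer or METTL3 was pulled down from Rosa26:BirA cells after crosslinking with formaldehyde or DSG, and each set has its own inputs. The METTL3 set has 2 clones with 2 precipitates each, the heat set has METTL3 samples named H4 and H5, and all other ChIP conditions are 1 library. The labels do not say that libraries of a group came from separate cultures, so p-values measure the spread between these libraries, which may be technical. Titles and source names disagree for some libraries, and titles were followed.

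The RNA libraries held 7102867 to 13579892 counts and the ChIP libraries 13775668 to 86256100. Drosha RNA was 87.9 to 134 counts per 1000000 counts of the library (CPM) in untreated Drosha-line libraries and 20.9 to 32.2 CPM after 4OHT. Dgcr8 RNA was higher, not lower, after 4OHT in its own floxed line (166 to 295 against 103 to 142 CPM), a check that says nothing of the deleted part. Mettl3 RNA was 54.7 to 70.9 CPM in parental and 20.5 to 44.6 CPM in knockout libraries. All 10 embryonic stem cell markers exceeded a mean of 10 CPM in both RNA tables, with sums from 2130 to 4650 CPM, while fibroblast markers summed to at most 61.0 CPM. The 2 mitochondrial ribosomal RNAs took 31.8% of counts in DGCR8 4OHT replicate 1 at 96 h and 26.3% in the only Drosha 4OHT library at 96 h, against 11.5% to 18.8% in the other floxed libraries. Their part in the results at 96 h was not tested.

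The start regions of Malat1, Lncenc1 and Kcnq1ot1 are printed because the ChIP windows that hold them behaved differently from the windows at the far ends of the same genes. Each runs from 250 bases before to 50 bases after the annotated start (RefSeq, GRCm38.p6), 5′ to 3′ on the gene's strand. Capitals mark CCAAT and TGACG, the core letters of a CCAAT box and of a cyclic AMP response element, or their reverse complements. Malat1 is at chr19:5802623-5802922 on the minus strand, Lncenc1 at chr13:97434720-97435019 on the plus strand and Kcnq1ot1 at chr7:143296498-143296797 on the minus strand.
Malat1: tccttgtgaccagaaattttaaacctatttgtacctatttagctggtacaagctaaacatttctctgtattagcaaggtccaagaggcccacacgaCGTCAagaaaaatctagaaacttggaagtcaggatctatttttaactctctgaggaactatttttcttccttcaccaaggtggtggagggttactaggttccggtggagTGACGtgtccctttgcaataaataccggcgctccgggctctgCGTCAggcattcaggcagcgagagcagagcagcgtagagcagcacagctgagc
Lncenc1: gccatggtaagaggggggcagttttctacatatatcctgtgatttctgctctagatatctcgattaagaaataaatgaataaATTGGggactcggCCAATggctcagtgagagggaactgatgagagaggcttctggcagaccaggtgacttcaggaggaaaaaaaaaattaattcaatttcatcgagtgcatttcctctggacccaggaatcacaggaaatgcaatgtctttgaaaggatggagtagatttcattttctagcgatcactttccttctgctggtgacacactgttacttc
Kcnq1ot1: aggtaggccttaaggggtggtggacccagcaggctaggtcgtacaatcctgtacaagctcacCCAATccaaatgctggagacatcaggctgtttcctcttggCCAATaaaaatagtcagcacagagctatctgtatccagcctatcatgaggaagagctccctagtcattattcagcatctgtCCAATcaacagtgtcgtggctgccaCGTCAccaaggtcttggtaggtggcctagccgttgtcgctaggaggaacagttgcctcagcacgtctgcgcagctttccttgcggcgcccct
The Malat1 region held 3 TGACG matches and no CCAAT, the Lncenc1 region 2 CCAAT matches and no TGACG, and the Kcnq1ot1 region 3 CCAAT matches and 1 TGACG match. Of 32851 regions of the same length, 37.4% held CCAAT and 20.8% held TGACG on either strand. None of the 3 regions held TATAAA, which 13.6% of all regions held, or GAANNTTC, the letters of a heat shock element pair, which 7.86% held. GC content was 47.0% for Malat1, 42.3% for Lncenc1 and 53.3% for Kcnq1ot1.

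Per kb of exon, Malat1 was by far the most abundant of the 4 measured RNAs. In the floxed libraries its median level was 636 CPM per kb, against 28.3 for Lncenc1, 5.05 for Neat1 and 2.42 for Pvt1, and that order held in 23 of 23 libraries. In the heat table the medians were 416, 29.0, 1.49 and 1.92 CPM per kb for Malat1, Lncenc1, Neat1 and Pvt1. There the floxed order held in 5 libraries and Pvt1 exceeded Neat1 in 7 of 12, so these neighbours in the order did not keep apart. The ratio of the highest to the lowest library was 2.72 for Malat1, 3.3 for Neat1, 3.24 for Lncenc1 and 2.08 for Pvt1 in the floxed table. In the heat table it was 6.95 for Malat1, 19.9 for Neat1, 3.91 for Lncenc1 and 1.9 for Pvt1, so Neat1 was the most variable of them there.

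On average, Neat1 was higher with 4OHT than in untreated libraries of the same hour, in both floxed lines at every time. The difference passed the test at 96 h in the DGCR8 line and in the mean of both lines. In the DGCR8 line at 24 h, Neat1 was at 100 and 105 CPM in untreated and 138 and 124 CPM in 4OHT libraries, a log2 difference of 0.36 ± 0.14 (SE; edgeR adjusted p = 0.914). At 48 h the values were 75.5 and 85.1 CPM untreated and 107 and 123 CPM with 4OHT (0.53 ± 0.14, adjusted p = 0.101). At 96 h they were 92.3 and 108 CPM untreated and 160 and 200 CPM with 4OHT (0.85 ± 0.14, adjusted p = 0.00416). At each time both 4OHT libraries lay above both untreated libraries. The share of all genes whose groups did not overlap was not counted in the floxed libraries. Such an order is therefore a description only, here and for the other RNAs below. In the Drosha line at 24 h, Neat1 was at 88.4 and 104 CPM untreated and 183 and 153 CPM with 4OHT (0.81 ± 0.22, adjusted p = 0.244). At 48 h it was at 60.5 and 73.7 CPM untreated and 90.7 and 94.8 CPM with 4OHT (0.47 ± 0.23, adjusted p = 0.318). At 96 h it was at 91.0 and 183 CPM untreated and 184 CPM in the only 4OHT library (0.42 ± 0.27, adjusted p = 0.276). The 2 untreated Drosha libraries at 96 h differed as much from each other as the lower one did from the 4OHT library. Without untreated replicate 2 the difference was 1.02 (adjusted p = 0.00145), and without untreated replicate 1 it was -0.004 (adjusted p = 0.99). These compare 1 library with 1, which are assumed to vary like the other groups of the line. In the Drosha line Neat1 passed at 24 h in a fit of only the 2 groups (adjusted p = 7.01e-05). Without a filter on low counts it passed at 24 h (0.79, adjusted p = 1.06e-09) and 48 h (0.47, adjusted p = 0.00322), and the difference at 96 h was 0.41. These differences are near those of the main fit while the adjusted p moved, and the cause was not tested.

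Averaged over both lines in 1 fit, the Neat1 difference was 0.58 ± 0.15 at 24 h (adjusted p = 0.174), 0.49 ± 0.16 at 48 h (adjusted p = 0.0619) and 0.64 ± 0.17 at 96 h (adjusted p = 0.0093). Neat1 was thus 1 of 4 measured members to change at 96 h in the DGCR8 line, where 13.5% of 14973 genes passed (8.25% higher and 5.22% lower), and 1 of 4 in the mean of both lines, where 28.2% of 16606 genes passed. In that mean 0.44% of genes passed at 24 h and 8.18% at 48 h. The DGCR8-line call was lost with library totals as the scale (0.74, adjusted p = 0.076), in a fit of only the 2 groups compared (adjusted p = 0.11) and without untreated replicate 1 (adjusted p = 0.064). In the mean of both lines it was lost with library totals (0.44, adjusted p = 0.118) and in a fit of only the groups compared (adjusted p = 0.108). More cells that express Neat1 and more RNA per cell cannot be told apart in these bulk libraries.

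**Figure D1:**
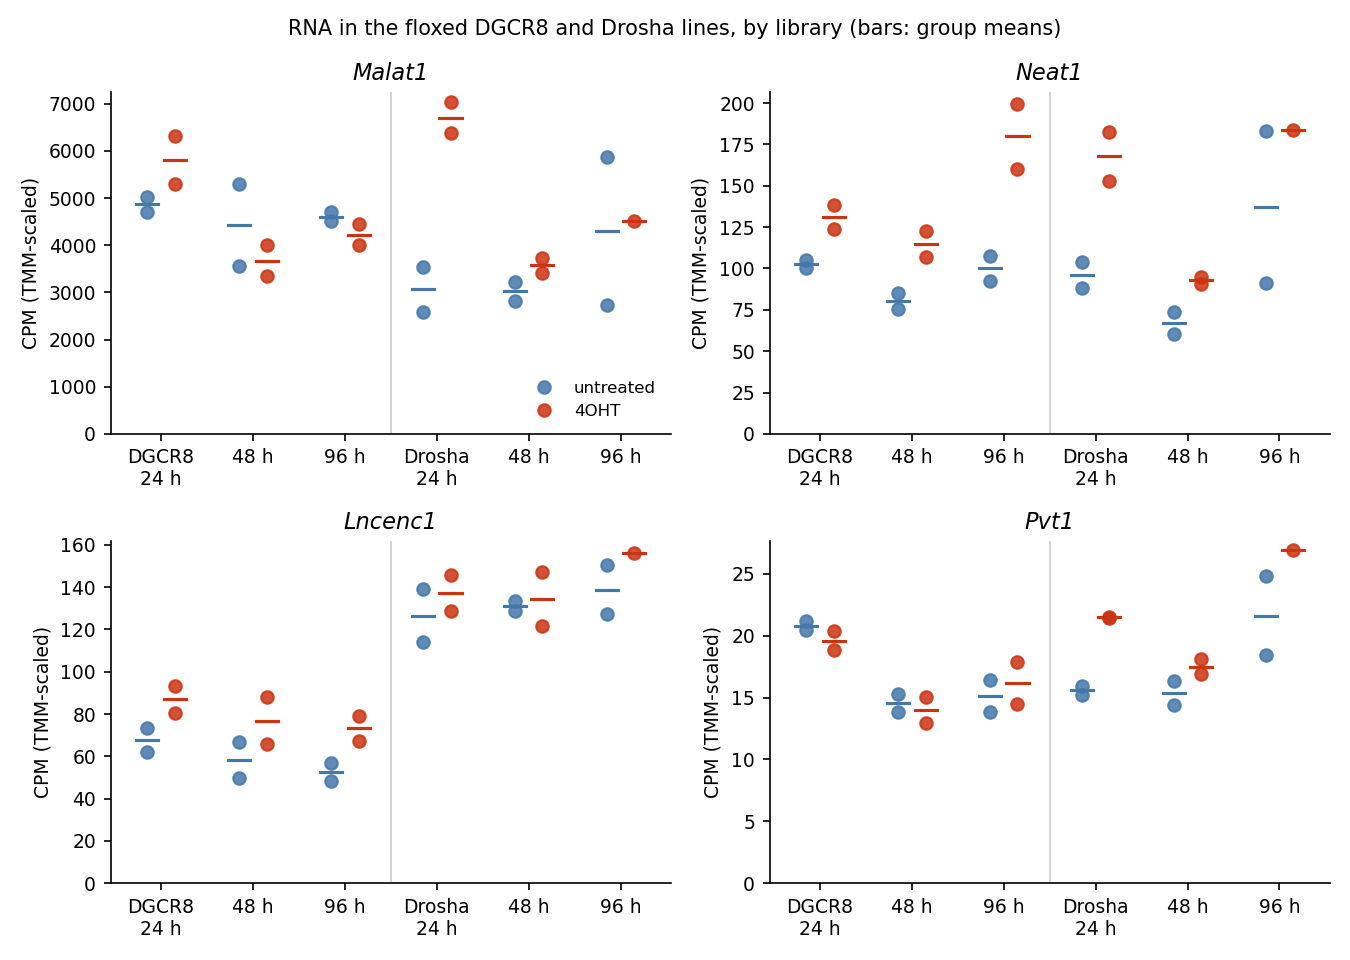
CPM of Malat1, Neat1, Lncenc1 and Pvt1 in each of the 23 floxed libraries (points, TMM-scaled, linear axes from 0), untreated in blue and 4OHT in red, with group means as bars, by line and hours. Neat1 lies higher with 4OHT at each time in the DGCR8 line, from 124 to 138 CPM at 24 h and 160 to 200 CPM at 96 h. In the Drosha line it lies higher at 24 h and 48 h. At 96 h the only Drosha 4OHT library (184 CPM) is level with the higher untreated library (183 CPM). Lncenc1 is higher throughout the Drosha line.

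Malat1 did not pass the edgeR test after 4OHT in either line, but at 24 h in the Drosha line the call depended on the setting. In the DGCR8 line at 24 h it was at 4707 and 5027 CPM untreated and 6315 and 5291 CPM with 4OHT (0.26 ± 0.18, adjusted p = 0.997). At 48 h it was at 3561 and 5298 CPM untreated and 3338 and 4000 CPM with 4OHT, and at 96 h at 4697 and 4511 against 3995 and 4441 CPM. The log2 differences at those times were -0.26 ± 0.18 and -0.13 ± 0.18 (adjusted p = 0.563 and 0.693), so the direction was not the same at all times. Malat1 in the Drosha line at 24 h was at 2581 and 3543 CPM untreated and 7026 and 6373 CPM with 4OHT. That 2.19-fold difference in means was the widest of the 6 Malat1 comparisons, and the groups did not overlap (1.13 ± 0.25, adjusted p = 0.114). It passed in a fit of only these 2 groups (1.14, adjusted p = 3.07e-05) and without a filter on low counts (1.12, adjusted p = 1.17e-41). The difference hardly moved between these fits while the adjusted p did, and the cause was not tested. In the mean of both lines at 24 h, DESeq2 called Malat1 (0.70, adjusted p = 0.0109). The Drosha-line values were 2813 and 3229 against 3419 and 3738 CPM at 48 h (0.24 ± 0.24, adjusted p = 0.667). At 96 h the untreated libraries were at 2741 and 5860 CPM and the 4OHT library, at 4515 CPM, lay between them (0.07 ± 0.30, adjusted p = 0.901, and 0.73, adjusted p = 0.016 without untreated replicate 2). At 24 h, 0.107% of genes passed in the DGCR8 line and 0.184% in the Drosha line. The difference between the lines' 24 h effects on Malat1 was 0.88 ± 0.35 and did not pass (adjusted p = 1.00), where 0.00602% of genes did.

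Lncenc1 and Pvt1 did not pass the edgeR test at any time in either line. Lncenc1 in the DGCR8 line was at 73.2 and 61.9 CPM untreated and 80.4 and 93.3 CPM with 4OHT at 24 h. At 48 h it was at 66.6 and 49.8 against 88.0 and 65.8 CPM, and at 96 h at 48.3 and 56.8 against 79.0 and 67.4 CPM. The 4OHT libraries lay above the untreated ones at 24 h and 96 h and overlapped them at 48 h, with log2 differences of 0.37 ± 0.19, 0.41 ± 0.19 and 0.48 ± 0.19 (adjusted p = 0.973, 0.341 and 0.126). In the Drosha line Lncenc1 was at 114 and 139 against 146 and 129 CPM at 24 h, 129 and 134 against 122 and 147 CPM at 48 h, and 127 and 150 against 156 CPM at 96 h. Those groups overlapped at 24 h and 48 h, and no difference exceeded 0.17 ± 0.15 on the log2 scale. Pvt1 stayed between 12.9 and 21.2 CPM in all DGCR8-line libraries, with differences of -0.08 ± 0.16, -0.04 ± 0.17 and 0.09 ± 0.17. Pvt1 in the Drosha line was at 16.0 and 15.2 against 21.4 and 21.5 CPM at 24 h (0.47 ± 0.15, adjusted p = 0.311). It was at 14.4 and 16.3 against 16.9 and 18.1 CPM at 48 h and 18.4 and 24.8 against 26.9 CPM at 96 h, so each 4OHT library exceeded the untreated ones of its time. Pvt1 passed at 24 h in a fit of only the 2 groups (adjusted p = 0.026) and at 96 h without untreated replicate 2 (0.56, adjusted p = 0.0369), where 1 library is compared with 1.

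Untreated, the lines differed most in Lncenc1. It was at 48.3 to 73.2 CPM in the 6 untreated DGCR8-line libraries and 114 to 150 CPM in the 6 untreated Drosha-line libraries, with no overlap (1.16 ± 0.10 higher in the Drosha line, adjusted p = 3.68e-08). Malat1 was lower in the Drosha line (-0.44 ± 0.14, adjusted p = 0.0177), but its ranges of 3561 to 5298 and 2581 to 5860 CPM overlapped. Its call was lost with library totals (-0.33, adjusted p = 0.0958). It was also lost without DGCR8 untreated replicate 2 at 48 h, Drosha untreated replicate 1 at 24 h or Drosha untreated replicate 1 at 48 h (adjusted p = 0.0717, 0.0636 and 0.0503). Neat1 and Pvt1 differed by 0.03 ± 0.13 and 0.06 ± 0.09. These 2 of 4 members stand against 48.7% of all genes passing between these lines (25.4% higher and 23.3% lower in the Drosha line). Between untreated cells at 96 h and at 24 h, where 7.24% of genes passed, none of the 4 did (Malat1 0.20 ± 0.18, Neat1 0.24 ± 0.15).

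Genes with a known tie to each RNA were followed as lists, whose members were drawn up with earlier results of these data known. At 96 h, 8.25% of all genes were called higher and 5.22% lower in the DGCR8 line, and 12.7% higher and 11% lower (23.7% together) in the Drosha line. The Drosha 4OHT group at 96 h is the single library with 26.3% mitochondrial ribosomal RNA, so its tests take their spread from the other groups of that line. Among paraspeckle proteins, the partners of Neat1, 1 of 17 rose and none fell at 96 h in the DGCR8 line (Fam98a, 0.43 ± 0.12, adjusted p = 0.0315). In the Drosha line none rose and 6 of 17 fell, including the RNA-binding proteins Dazap1 (-0.91 ± 0.13) and Hnrnph3 (-0.57 ± 0.13) and the chromatin remodeller Smarca4 (-0.72 ± 0.16). The median of the list was -0.119 in the DGCR8 line and -0.301 in the Drosha line, beside medians of all genes of 0.0153 and -0.0149. Among nuclear speckle proteins, the surroundings of Malat1, none of 19 passed in the DGCR8 line (Rbm25 0.32 ± 0.13, adjusted p = 0.145). Of the same 19, 3 rose and 6 fell in the Drosha line, with the splicing kinase Clk1 higher (0.80 ± 0.16) and the speckle proteins Acin1 (-0.83 ± 0.16) and Pnn (-0.52 ± 0.11) lower. Among genes of 3′ end formation and turnover of nuclear RNA, none of 11 passed in the DGCR8 line and 3 fell in the Drosha line. Those 3 were Rpph1, the RNA of RNase P (-1.17 ± 0.28, adjusted p = 0.00801), Elac2, the tRNA 3′ endonuclease (-0.90 ± 0.13), and Pabpn1, the nuclear poly(A)-binding protein (-0.77 ± 0.13).

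Among genes near Malat1 and Neat1 on chromosome 19, none of 14 rose and 2 fell at 96 h in the DGCR8 line (Fam89b -1.20 ± 0.30, Sssca1 -0.81 ± 0.23). In the Drosha line none rose and 7 of 14 fell, among them Sssca1 (-0.89 ± 0.16), Pola2 of the DNA polymerase alpha complex (-0.56 ± 0.13) and the kinase gene Map3k11 (-0.86 ± 0.21). Near Pvt1, Myc fell in both lines (-0.93 ± 0.20, adjusted p = 0.0116 in the DGCR8 line and -0.98 ± 0.19, adjusted p = 0.00199 in the Drosha line) and Fam84b fell in both (-1.36 ± 0.17 and -0.57 ± 0.18), 2 and 3 of 6 genes in all. In the Kcnq1 imprinted domain Cdkn1c, a cyclin-dependent kinase inhibitor silenced in cis by Kcnq1ot1, rose in both lines (1.32 ± 0.15, adjusted p = 0.00087 and 0.62 ± 0.16, adjusted p = 0.0128). It was 1 of 9 genes in the DGCR8 line, and Cd81 rose beside it in the Drosha line (0.72 ± 0.12), 2 of 10 genes, with none lower in either line. Among the Lncenc1 partners and glycolysis genes, none of 17 rose, 4 fell in the DGCR8 line (5.22% of all genes) and 8 fell in the Drosha line (11% of all genes). The glucose transporter Slc2a1 (-0.63 ± 0.10), pyruvate kinase Pkm (-0.57 ± 0.11) and lactate dehydrogenase Ldha (-0.69 ± 0.14) fell in the DGCR8 line. Phosphofructokinase Pfkl (-0.79 ± 0.13), enolase Eno1 (-0.83 ± 0.15) and hexokinase Hk2 (-0.67 ± 0.13) fell in the Drosha line. Among other long noncoding RNAs, 4 of 16 rose and 1 fell in the DGCR8 line, and 5 of 21 rose and 3 fell in the Drosha line. Mir17hg, the host of the miR-17-92 hairpins, led both (1.82 ± 0.18 and 2.18 ± 0.20), and Tug1, a nuclear RNA, rose in the Drosha line (0.86 ± 0.13).

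These counts at 96 h moved with the scale and with single libraries. With library totals as the scale, the median of all genes shifted from 0.0153 to -0.114 in the DGCR8 line and from -0.0149 to -0.297 in the Drosha line. Calls of all genes went from 1235 higher and 782 lower to 413 and 488 in the DGCR8 line, and from 2066 and 1788 to 907 and 4044 in the Drosha line. The lower glycolysis genes then numbered 3 of 17 and 13 of 17, and the paraspeckle genes lower in the Drosha line 9 of 17. The median of the Kcnq1 domain in the Drosha line was then -0.183, with 1 gene higher and 2 lower. Leaving out 1 of the 4 DGCR8-line libraries at 96 h gave 1 to 7 lower glycolysis genes, the fewest without untreated replicate 1. Leaving out either untreated Drosha library at 96 h gave 8 or 9.

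At 48 h, where 1.48% of genes passed in the DGCR8 line and 2.82% in the Drosha line, Cdkn1c rose in the DGCR8 line (0.91 ± 0.15, adjusted p = 0.0176) and Cd81 in the Drosha line (0.41 ± 0.10). At 24 h, Mir17hg rose in the DGCR8 line (2.22 ± 0.18, adjusted p = 0.0014) and in the Drosha line (2.16 ± 0.18, adjusted p = 2.34e-05). Between the untreated lines, where 25.4% of all genes were higher and 23.3% lower in the Drosha line, 14 of 17 glycolysis and Lncenc1 partner genes were lower in the Drosha line and 1 was higher, with a median of -0.527 beside 0.0116 for all genes. Aldolase Aldoa was lower (-0.65 ± 0.05) and enolase Eno1 higher (0.78 ± 0.07), in the line in which Lncenc1 was higher. The imprinted noncoding RNAs Rian (8.66 ± 0.19), Mirg (10.30 ± 0.29) and Meg3 (10.87 ± 0.34) were higher in the untreated Drosha line, among 10 higher and 5 lower of 21 other long noncoding RNAs.

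In the heat table, Malat1 and Neat1 split the 12 libraries into the 2 sets that carry sample numbers 24 to 29 and 30 to 35 in their titles. Malat1 ranged from 3649 to 8474 CPM in the first set and from 1219 to 2156 CPM in the second, a 3.52-fold difference of geometric means. Neat1 ranged from 35.2 to 170 CPM and from 8.55 to 26.5 CPM, a 6.89-fold difference, while Lncenc1 (59.8 to 234 and 67.1 to 146 CPM) and Pvt1 (11.1 to 18.8 and 9.87 to 15.7 CPM) overlapped. Over all genes, 7.53% of 15635 had sets that did not overlap. Malat1 helped to choose the members, so the split is given as a description. Each set holds 1 parental sample and 2 knockout lines at both temperatures. Within these 4 groups the difference between sets was 1.58 to 2.05 on the log2 scale for Malat1 and 2.04 to 3.06 for Neat1, so the split was present in each group. The median of all genes differed by 0.00255 between sets. Mitochondrial ribosomal RNA took 11.2% to 18.6% of counts in the first set and 17.9% to 20.5% in the second, and 20528 to 21301 and 19979 to 20715 genes had a count. Small nucleolar RNAs took 0.0902% to 0.293% and 0.0826% to 0.114%. The part of these measures in the split was not tested.

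**Figure D2:**
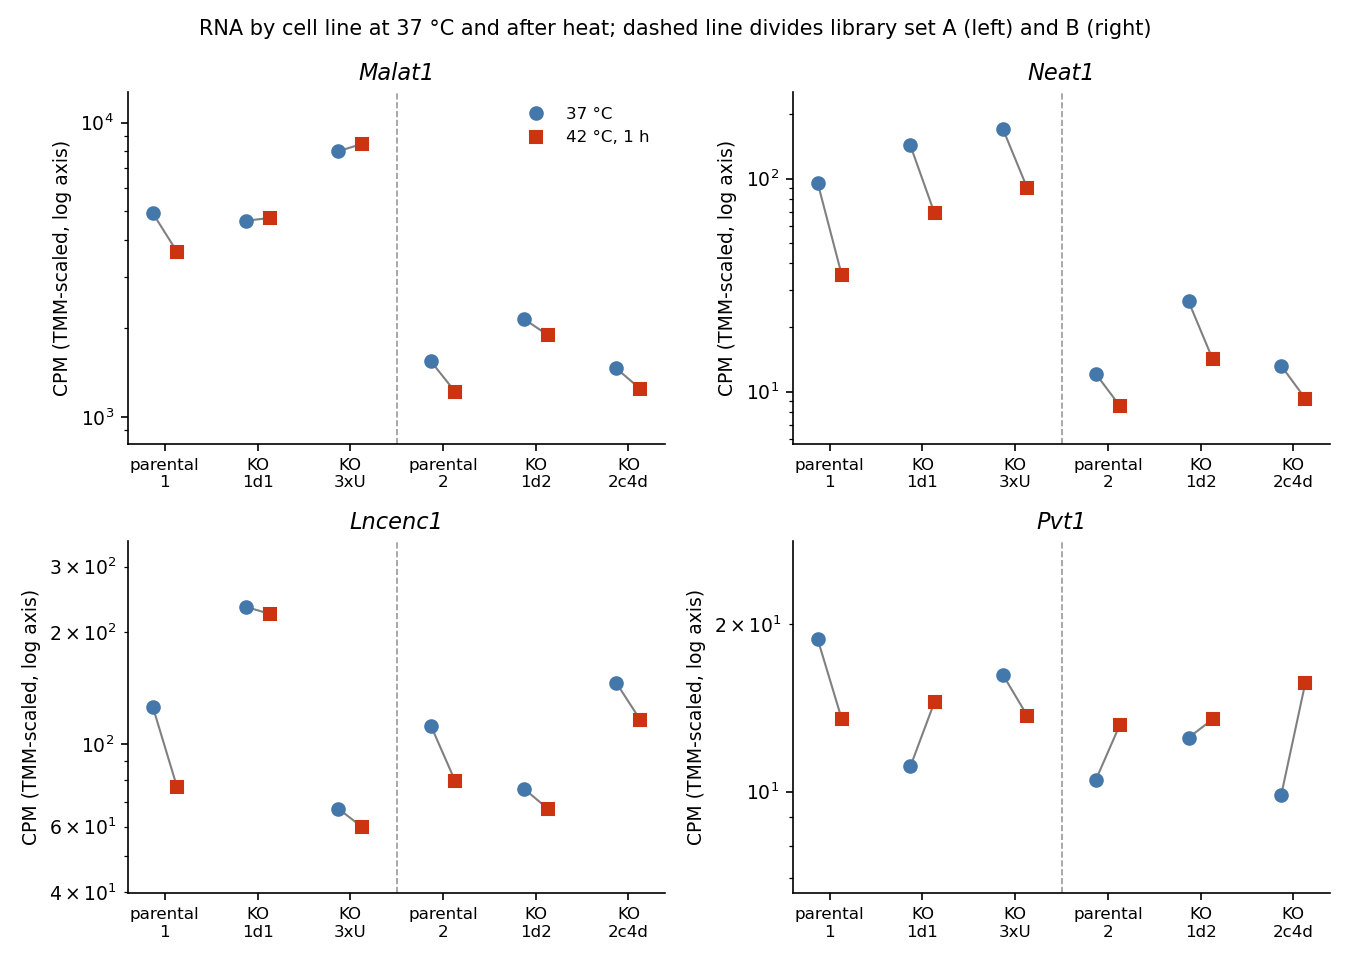
CPM (log axis) of the 4 RNAs at 37 °C and 42 °C in the 12 heat libraries, by parental sample or knockout line, with blue circles for 37 °C, red squares for 42 °C, a line joining the 2 libraries of a sample, and a dashed line between library sets A (numbers 24 to 29) and B (30 to 35). Malat1 and Neat1 lie apart by set, and Neat1 declines from 37 °C to 42 °C in all 6 pairs.

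Neat1 was lower after 1 h at 42 °C in 6 of 6 pairs of libraries, 2 from parental samples and 4 from knockout lines, and Lncenc1 was lower in 6 of 6. The share of all genes lower in 6 of 6 pairs was not counted, and in line 1d1 the Lncenc1 difference was only -0.06 on the log2 scale. The labels do not say whether the parental samples are different lines. In parental sample 1, Neat1 went from 95.4 to 35.2 CPM, and in parental sample 2 from 12.1 to 8.55 CPM. In the knockout lines it went from 143 to 68.8 CPM (1d1), 170 to 90.3 CPM (3xU), 26.5 to 14.2 CPM (1d2) and 13.2 to 9.26 CPM (2c4d). The mean log2 difference was -0.89 ± 0.36 (SD, n = 6 pairs), and it ranged from -1.44 to -0.50. It was -1.14 ± 0.27 in the 3 pairs of the first library set and -0.64 ± 0.23 in the 3 of the second. Without the pairing, Neat1 did not pass in parental cells (-1.31 ± 1.33, adjusted p = 1.00) or knockout lines (-0.95 ± 0.92, adjusted p = 1.00), where 0.0192% and 0.185% of genes passed. The library of a line or parental sample at 42 °C deviated from its group together with the same one at 37 °C. With the line or parental sample as a block, Neat1 fell in parental cells (-1.06, adjusted p = 0.041) and in knockout lines (-0.87, adjusted p = 0.0035), where 0.761% and 6.77% of genes passed.

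Lncenc1 went from 126 to 76.9 CPM and from 112 to 79.7 CPM in the parental samples. In the knockout lines it went from 234 to 224, 67.1 to 59.8, 76.0 to 67.1 and 146 to 116 CPM. With the block it fell in parental cells (-0.60, adjusted p = 0.041), and the knockout difference of -0.19 did not pass (adjusted p = 0.199). Malat1 was lower in 4 of 6 pairs. It went from 4923 to 3649 and 1546 to 1219 CPM in parental samples, and from 4642 to 4743, 7998 to 8474, 2156 to 1899 and 1462 to 1244 CPM in knockout lines (mean -0.18 ± 0.20, SD). With the block it did not pass in parental cells (-0.39, adjusted p = 0.17) or in knockout lines (-0.07, adjusted p = 0.652). Pvt1, between 9.87 and 18.8 CPM, was lower in 2 of 6 pairs and had a mean difference of 0.13 ± 0.43 (SD). The heat effects of knockout lines and parental cells were compared directly. Neat1 differed by 0.36 ± 1.59 and Lncenc1 by 0.44 ± 0.76 (adjusted p = 1.00 for both), in a comparison where 0 genes (0%) passed in edgeR, 208 had an unadjusted p under 0.05 and DESeq2 called 5. With the line as a block, the effects differed by 0.19 for Neat1 and 0.41 for Lncenc1 (adjusted p = 0.933 and 0.716, where 0.0128% of genes passed).

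None of the 4 RNAs passed the test between Mettl3 knockout lines and parental cells, where 0.902% of genes passed at 37 °C and 0.64% at 42 °C. At 37 °C the log2 differences were 0.33 ± 0.81 for Malat1 (adjusted p = 0.886), 0.71 ± 1.15 for Neat1, 0.14 ± 0.54 for Lncenc1 and -0.24 ± 0.26 for Pvt1. At 42 °C they were 0.75 ± 0.83, 1.07 ± 1.19, 0.57 ± 0.55 and 0.10 ± 0.27. These standard errors include the split between library sets. Within the first set Neat1 at 37 °C was 143 and 170 CPM in knockout against 95.4 CPM in parental libraries, and within the second 26.5 and 13.2 against 12.1 CPM. Of the lists, only the nuclear speckle list had a gene past the threshold with heat in the unpaired fit, the splicing kinase Clk4 in knockout lines (1.28 ± 0.14, adjusted p = 0.00206).

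On chromatin, METTL3 was high at the 3′ end of Lncenc1 and over the body of Malat1. Ratios are log2 of CPM in the precipitate over CPM in the input of the same clone, with 1 pseudocount. Lncenc1 was chosen by METTL3 over input, so these ratios are given without a test. The window chr13:97495001-97500000, which holds the 3′ end of Lncenc1, had 1114 and 1345 counts in the precipitates of clone 1 against 74 in its input. In clone 2 it had 2798 and 1252 counts against 42. The ratios were 3.45, 3.88, 4.93 and 4.00, and their mean of 4.07 ranked 2 of 300103 windows. The next window towards the start, chr13:97490001-97495000, had ratios of 1.97, 2.19, 2.11 and 1.45, while the windows chr13:97430001-97435000 and chr13:97435001-97440000 at the start of the gene had means of 1.07 and 0.02. In Malat1 the window chr19:5795001-5800000, with the 3′ end, had 367, 409, 489 and 240 counts against inputs of 51 and 29 (ratios 2.38, 2.70, 2.94 and 2.15, rank 85). The window chr19:5800001-5805000, with the 5′ end and the start region printed above, had ratios of 0.42 to 0.80. In Kcnq1ot1 the window with the start itself, chr7:143295001-143300000, had a mean of -1.07, while windows near the start and in the 3′ part of the gene were above input. The window chr7:143290001-143295000 near the start had ratios of 1.05, 1.34, 1.84 and 1.66. In the 3′ part of the gene chr7:143225001-143230000 had 1.24, 0.91, 1.69 and 1.44, and chr7:143235001-143240000 had 1.54, 1.32, 1.34 and 0.76. The highest Pvt1 window, chr15:62090001-62095000, had ratios of 1.37, 1.58, 1.74 and 1.15. The highest Neat1 window, chr19:5840001-5845000 at the 5′ part of the gene, had 1.29, 1.11, 1.34 and 0.61. In all, 5 of 79 windows with enough counts exceeded 2-fold in all 4 precipitates, against 0.589% of all windows. They are 2 in Lncenc1 and 1 each in Malat1, Kcnq1ot1 and Pvt1. Lncenc1 was chosen by such ratios, so this count is in part fixed by the choice and does not measure enrichment.

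The heat set holds other METTL3 libraries. The METTL3 libraries used to choose Lncenc1 are not named, so its windows over input are given here without p-values. At 37 °C, METTL3 exceeded input by edgeR adjusted p in 18 of 86 windows and was below it in 4. Of the 18, 2 lie in Lncenc1 and may follow from the choice of that gene, so they are no support. Of all 493877 windows, 20.8% were higher and 19% lower. The share of higher windows was thus near that of the genome, and the lower windows were 4 of 86 against 19%. The Lncenc1 3′ window had 2509 counts in H4 and 9649 in H5 against inputs of 136 and 212 (4.73 ± 1.55). The window beside it had 789 and 1506 against 191 and 253 (1.94 ± 0.58). The Malat1 3′ window had 2835 and 1349 against 192 and 267 (2.72 ± 0.79, adjusted p = 0.0118), and the Malat1 5′ window did not pass (0.66 ± 0.75, adjusted p = 0.492). The call of the Malat1 3′ window was lost without the precipitate of H4 (2.17, adjusted p = 0.0751) or of H5 (3.11, adjusted p = 0.0636). In Pvt1, 4 of 46 windows were higher and 4 lower, from 1.47 ± 0.34 at chr15:62245001-62250000 to -1.51 ± 0.42 at chr15:62215001-62220000. None of the 6 Neat1 windows passed, the highest being chr19:5840001-5845000 at 0.38 ± 0.68. In Kcnq1ot1, 11 of 18 windows were higher, led by chr7:143230001-143235000 (5.01 ± 0.45, adjusted p = 1.61e-05). That window had 245 and 319 counts in the precipitates but 2 and 11 in the inputs, and other windows between 143210001 and 143250000 also had inputs of 2 to 80 counts. The Kcnq1ot1 window with the start was lower than input without passing (-1.25 ± 0.51, adjusted p = 0.0549). With 1 of the 4 libraries left out, the called windows numbered 15 to 40, and 40 without the H5 input.

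After 1 h at 42 °C, METTL3 counts scaled to library size were lower in nearly all of these windows, and none passed the test. Of 86 windows 83 were lower at 42 °C. An unadjusted edgeR p under 0.05 was found in 25 of them and in 13456 of all 493877 windows. Of the 25, 9 lie in Lncenc1 and may follow from the choice of that gene. By adjusted p, 0.000202% of all windows passed in edgeR. The median log2 difference was -1.21 in Malat1, -0.73 in Neat1, -0.82 in Lncenc1, -0.75 in Kcnq1ot1 and -0.49 in Pvt1, beside 0.00651 for all windows. The Lncenc1 3′ window went from 2509 to 437 counts in H4 and from 9649 to 469 in H5 (-4.32 ± 1.51). The window beside it went from 789 to 263 and from 1506 to 318 (-2.53 ± 0.59, adjusted p = 0.59). The Malat1 3′ window went from 2835 to 582 and from 1349 to 935 (-1.96 ± 0.77, adjusted p = 1.00), while the 5′ window went from 1458 to 1105 and from 1061 to 1519. In these 2 Lncenc1 windows the counts were lower at 42 °C in both H4 and H5. In Malat1 they were lower in both samples in the 3′ window and only in H4 in the 5′ window. Summed over each gene and scaled to library size, the log2 ratios in H4 and H5 were -1.29 and -2.37 for Lncenc1. For Malat1 they were -1.76 and -0.435. DESeq2 called 5 of the windows, among them the 3′ windows of Lncenc1 and of Malat1 (adjusted p = 0.000317 for Malat1). With H4 and H5 as a replicate block edgeR called 3. Those were the window beside the Lncenc1 3′ window (-2.48) and 2 in Kcnq1ot1, so the calls depended on the tool and on the block. The calls in Lncenc1 may follow from its choice and are no support. RNA of Lncenc1 and Neat1 was also lower at 42 °C, in other cells, and the part of RNA level in these ChIP values was not tested.

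DGCR8 and Drosha were high over the same ends of Malat1 and Lncenc1, and Dicer was not. Each condition is 1 library, so there is no replicate check, and intervals cover counting error only. With DSG crosslinking, DGCR8 over its input reached 3.47 in the Malat1 3′ window (1487 against 123 counts) and 3.14 in the Neat1 window chr19:5840001-5845000 (3363 against 352). It reached 2.30 in the Lncenc1 window chr13:97490001-97495000 (713 against 133), 2.51 in Kcnq1ot1 (73 against 11 counts in chr7:143235001-143240000) and 1.51 in Pvt1. With formaldehyde alone the highest windows were 1.31, 1.31, 0.94, 0.17 and 0.79 for Malat1, Neat1, Lncenc1, Kcnq1ot1 and Pvt1. Drosha over the parental input reached 3.71 in Malat1 (822 against 116 counts), 2.25 in Neat1 (604 against 235) and 4.32 in Lncenc1 (1161 against 107). Both proteins had their highest Lncenc1 ratio 1 window before the 3′ window in which METTL3 was highest. There DGCR8 was at 1.06 and Drosha at 2.49. Dicer reached 0.18 in Malat1, 0.49 in Neat1, 0.38 in Lncenc1, 0.38 in Kcnq1ot1 and 0.43 in Pvt1. Past 2-fold were 19 of 85 windows for DGCR8 with DSG (19.1% of all windows), 11 of 79 for Drosha (15.1%) and 0 of 79 for Dicer (0.691%). By number these windows were thus close to the background, and it is single windows that stood high. The sums over whole genes were 2.68, 1.52, 0.71, -0.185 and 0.58 for DGCR8 with DSG in the order above.

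**Figure D3:**
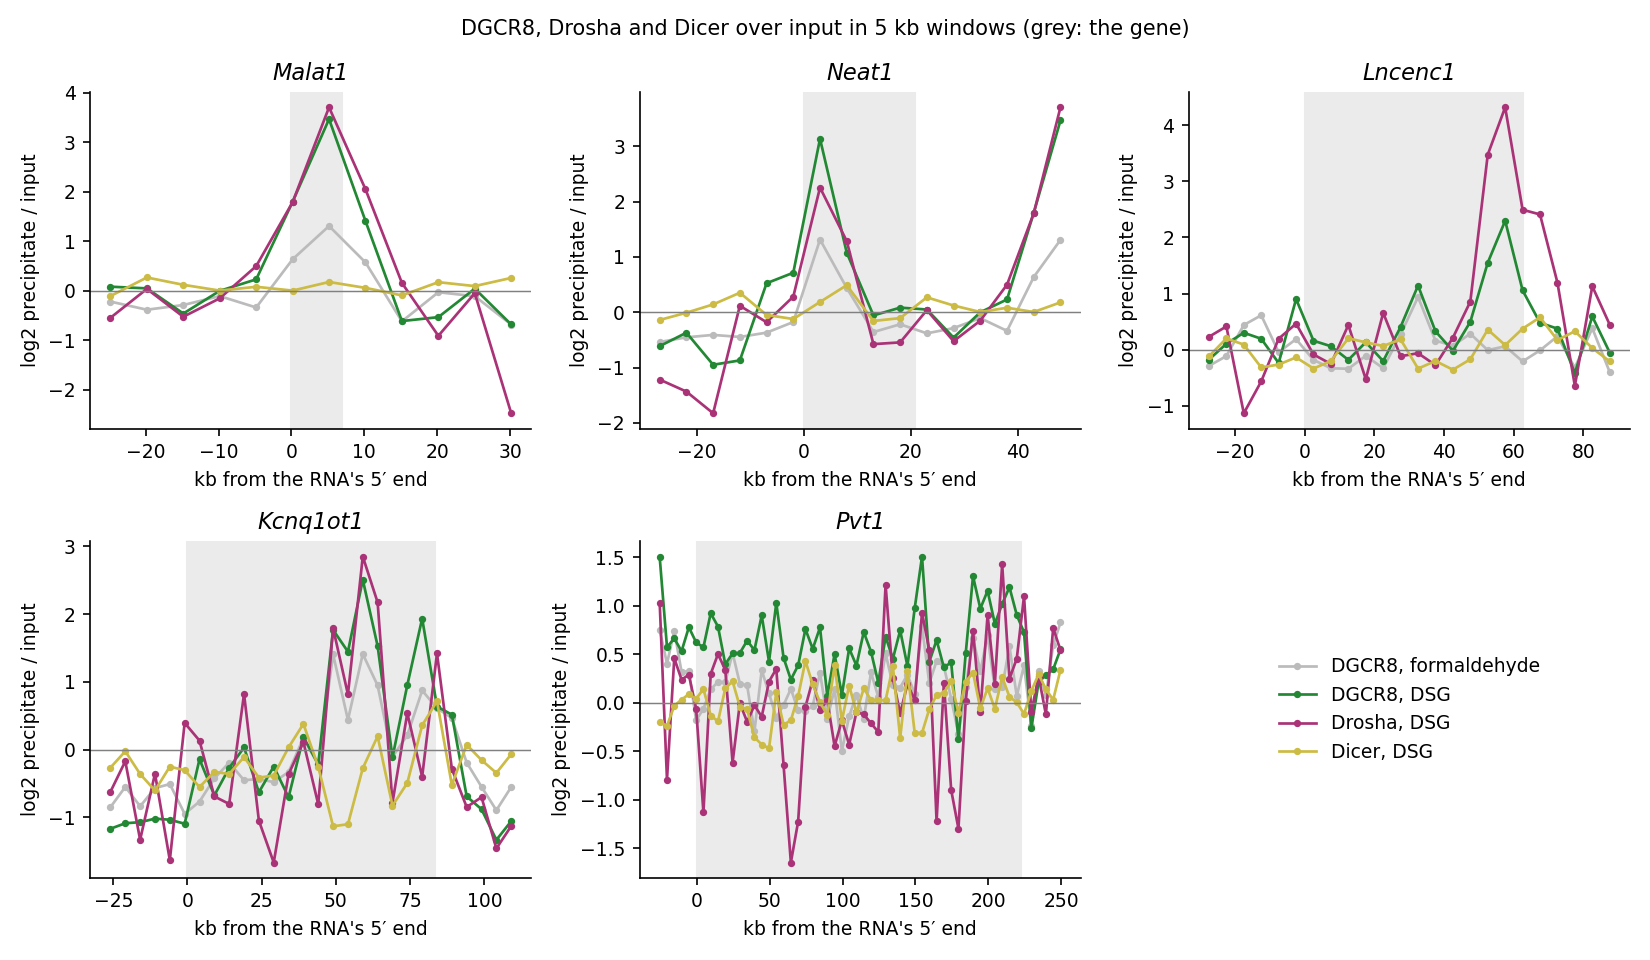
Log2 ratio over input of DGCR8 (formaldehyde and DSG), Drosha and Dicer in 5 kb windows, by distance in kb from the 5′ end of the RNA, with the gene in grey. Windows with few counts are drawn too, and the right end of the Neat1 panel holds the windows of Malat1. DGCR8 and Drosha peak in Malat1 (3.47 and 3.71), Neat1 (3.14 and 2.25) and Lncenc1 (2.30 and 4.32), where Dicer stays below 0.5.

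DGCR8 was lower over Malat1 and Neat1 in the Mettl3 knockout library than in wild type. In wild type cells, DGCR8 over input was 1.60 in the Malat1 3′ window (473 against 135 counts), 1.80 in the highest Neat1 window (691 against 172) and 0.98 in the highest Lncenc1 window. In the knockout the same Malat1 window had 119 counts and the 5′ window 131 against 324 in wild type. Summed over the gene, the log2 ratio of knockout to wild type was -1.18 (95% interval -1.40 to -0.98) for Malat1. It was -1.08 (-1.24 to -0.93) for Neat1, where chr19:5840001-5845000 went from 691 to 108 counts (-2.18). It was -0.21 for Lncenc1, 0.15 for Kcnq1ot1 and -0.32 for Pvt1. Of 86 windows 3 were lower past 2-fold, against 1.24% of all windows, 1 each in Malat1, Neat1 and Pvt1. At the RNA level, the difference between knockout lines and parental cells at 37 °C was 0.33 ± 0.81 for Malat1 and 0.71 ± 1.15 for Neat1, and neither passed the test.

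In the heat set, DGCR8 at 37 °C over input was 4.58 in the Malat1 3′ window (1756 against 221 counts), 3.72 in Neat1 (1833 against 420) and 4.29 in the Lncenc1 window chr13:97490001-97495000 (1445 against 222). Kcnq1ot1 reached 4.72 on 60 against 4 counts and Pvt1 1.91 on 119 against 94. In all, 29 of 86 windows exceeded 2-fold, against 16.4% of all windows. After 42 °C, the log2 ratio to 37 °C summed over each gene was -1.92 for Malat1, -0.96 for Neat1, -2.10 for Lncenc1, -0.40 for Kcnq1ot1 and -1.04 for Pvt1, while the median of all windows was 0.276. The Lncenc1 window went from 1445 to 378 counts (-3.88) and the Malat1 3′ window from 1756 to 928 (-2.87), in a 42 °C library with more counts in total. In these 2 genes the windows that were highest at 37 °C had the lowest ratios. The same 37 °C library ranks the windows and is the denominator, so this pattern is in part built in. Of 86 windows 33 were lower past 2-fold, against 4.15% of all windows. Most of them, 22, lie in Pvt1, with 4 in Lncenc1, 3 in Neat1, 3 in Kcnq1ot1 and 1 in Malat1. Windows of 1 gene are not separate members. These DGCR8 values rest on 1 library of each temperature. Among counts above 3, 51.3% to 66.4% were even in the libraries of the heat set and 50.0% to 50.5% in the other ChIP sets, so intervals for counting error are too narrow there.

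**Figure D4:**
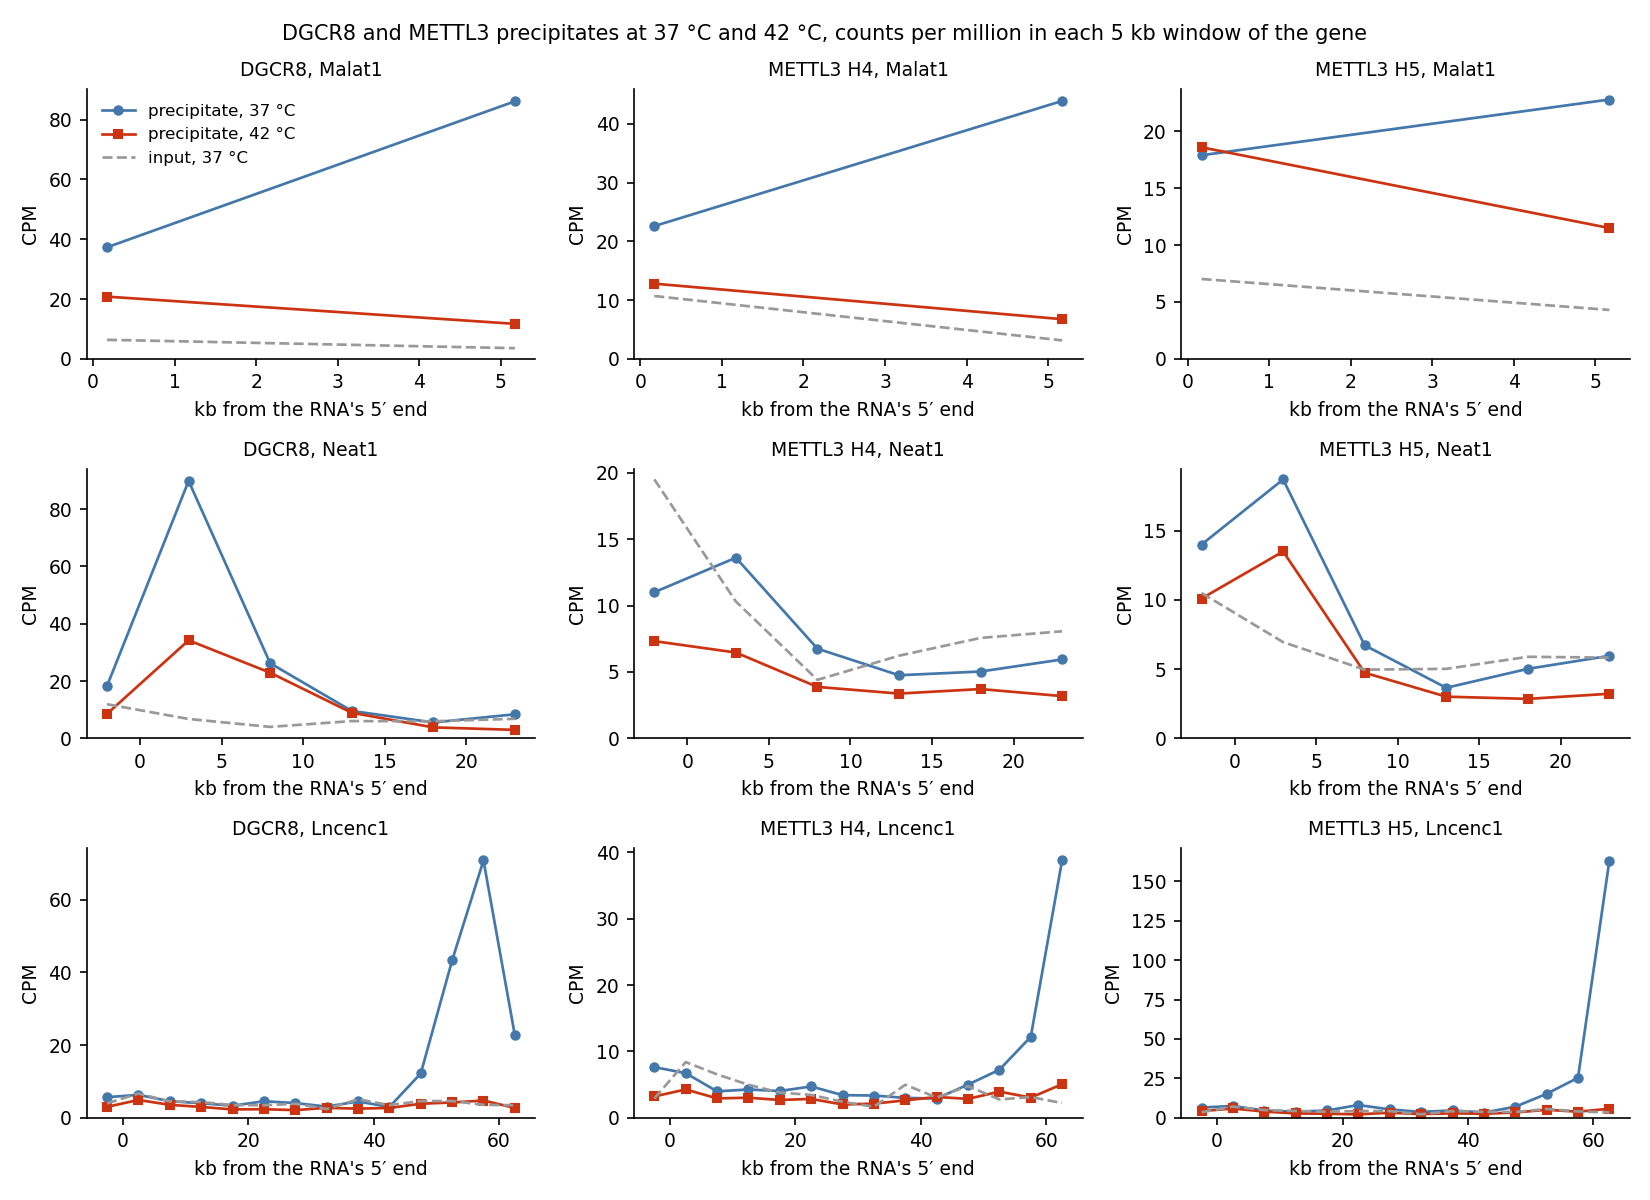
CPM in 5 kb windows of Malat1, Neat1 and Lncenc1 for DGCR8, METTL3 H4 and METTL3 H5 at 37 °C, at 42 °C and in the 37 °C input, by distance in kb from the 5′ end of the RNA, with linear axes from 0. The 37 °C precipitates are high at the far end of Lncenc1 (9649 counts in METTL3 H5) and drop at 42 °C (469 counts).

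Across libraries, the RNAs most like each member were found by Pearson's r of log2 CPM, given as a description because libraries of a group share their treatment, line and depth. Over the 23 floxed libraries Malat1 was most like Snhg11 (0.894), Gm27694 (0.879) and Gabbr1 (0.86) among 11101 genes. Over the 12 heat libraries it was most like Lrp5 (0.976), Gm27694 (0.974) and Spaca6 (0.973), so Gm27694 was on both lists. Neat1 was most like Kmt2e (0.888), Ago3 (0.885) and Nfat5 (0.864) in the floxed libraries and Zfp236 (0.98), Nav2 (0.976) and Wdfy3 (0.969) in the heat libraries. Lncenc1 was most like Anxa2 (0.951), Ptp4a3 (0.947) and Ghr (0.945), and in the heat libraries like Champ1 (0.961), 1700030K09Rik (0.957) and Cyld (0.948). Pvt1 had weaker likenesses, led by Clcn3 (0.784) and Stc2 (0.76). Malat1 and Neat1 had an r of 0.645 in the floxed libraries and 0.954 in the heat libraries, where both followed the 2 library sets.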

How the data were processed

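RNA was measured after ribosomal RNA depletion and ChIP after streptavidin pulldown, per the labels' protocols. The authors deposited raw counts per Ensembl gene and per 5 kb window on mm10. Bowtie and mm10 are named in the submitters' processing notes, while the aligner version, annotation and use of strand are not given in the sources used here. Of the identifiers 37607 had a symbol and 1410 had none. One DGCR8 column of the ChIP counts was assigned to its sample by elimination. The members and lists were chosen with earlier results of these data known.

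Counts were scaled by TMM and tested with edgeR 4.0.16 in R 4.3.3 (quasi-likelihood F test, filterByExpr, Benjamini-Hochberg over all genes). Genes tested numbered 14973 in the DGCR8 line, 16262 in the Drosha line, 16606 in the joint fit and 15635 in the heat fit. Called means an adjusted p under 0.05. METTL3 windows of the heat set with a mean of at least 10 counts were tested alike. All other ChIP values are log2 ratios of CPM with a pseudocount of 1 for windows with at least 50 counts together, with 95% intervals that cover counting error only, and called there means past 2-fold. The named genes were the 5 members, the 3 genes most like each by r, and up to 3 called genes of smallest p per list. Alternatives were DESeq2 1.42.0, library totals, no filter, a replicate block, only the groups compared, other pseudocounts and inputs, and each library left out. The tests were also run on simulated counts that had the same spread for all genes or windows and no differences between lines or library sets. That check does not cover the spread of these data. Libraries of a line or parental sample at 37 °C and 42 °C deviated together (r from 0.646 to 0.85), and the pairing comes from the line and sample names in the labels.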

Additional observations from a re-analysis of the deposited data

How the results depend on the processing

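Counts of called RNAs among the 4 measured moved with the setting, and the cause was not tested. For the DGCR8 line at 96 h (1 called), library totals and a fit of only the groups compared gave 0, and leaving out 1 library gave 0 to 1. For the Drosha line (0 called at each time), at 24 h no filter and the replicate block gave 2 (Malat1, adjusted p = 0.00342, and Neat1, adjusted p = 0.0188, with the block) and only the groups compared 3, with Pvt1 added. At 48 h no filter gave 1. At 96 h no filter gave 1, the block 2 (Malat1 and Neat1) and leaving out 1 library 0 to 3. For the mean of both lines at 24 h (0), DESeq2, no filter, the block and only the groups compared each gave 2 (Malat1 and Neat1), and at 48 h (0) each gave 1 (Neat1). At 96 h (1), library totals and only the groups compared gave 0, no filter gave 2, and leaving out 1 library gave 1 to 2, with Lncenc1 added in both (adjusted p = 0.0421 without DGCR8 4OHT replicate 2). The difference between lines at 24 h (0) gave 1 without a filter. Untreated lines (2) gave 1 with library totals and 1 to 2 without 1 library, and untreated 96 h against 24 h (0) gave 1 without a filter and 0 to 1 without 1 library, the 1 being Neat1 without Drosha replicate 1 at 96 h. Replicate numbers did not pair floxed libraries (r of -0.578, 0.452 and 0.401 in the DGCR8 line, -0.111 and -0.318 in the Drosha line). The crossed pairing, added after the data were seen, called 25, 684 and 1650 genes for DGCR8 24 h, Drosha 24 h and Drosha 48 h, and 0, 3 and 1 of these RNAs. Genes called in the Drosha line at 24 h went from 25 higher and 5 lower to 426 and 322 with only the groups compared, and none was called for the DGCR8 line at 96 h in that fit, where 2803 had an unadjusted p under 0.05.

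With the cell line as a block, heat gave 2 called RNAs in parental cells and 1 in knockout lines, against 0 without it. METTL3 windows over input (22 called) numbered 15 to 40 without 1 library, and the Lncenc1 3′ window was not among them with H4 and H5 as a block (4.49) or without the precipitate of H4 (5.42). METTL3 windows at 42 °C against 37 °C (0) numbered 3 with H4 and H5 as a replicate block and 5 with DESeq2. With the median window ratio as the scale, windows past 2-fold numbered 3 for METTL3 over input (5), 12 for DGCR8 with DSG (19) and 50 for DGCR8 lower at 42 °C (33). Summing counts over all windows of a gene, in place of its highest window, turned the sign of 27 of 90 ratios. Of these, 4 were past 2-fold in the highest window: Kcnq1ot1 (METTL3 H5 at 42 °C -0.476, DGCR8 with DSG -0.185, Drosha -0.015) and Pvt1 (Drosha -0.004). Signs changed in 65 of 856 other RNA values and calls in 43. For METTL3 windows these were 53 and 63 of 1204. Of 390 highest-window ratios 31 changed sign and 101 changed in call or in the label for agreement with the main value.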

Other observations

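The signal on chromatin did not stop at the annotated 3′ ends. In chr19:5790001-5795000, the first window past the 3′ end of Malat1, METTL3 over input was 1.49, 1.52, 1.49 and 0.97 in the 4 precipitates, DGCR8 with DSG was 1.41 (394 against 136 counts) and Drosha was 2.05 (287 against 128 counts). Dicer was 0.06 there. DGCR8 in this window was lower in the Mettl3 knockout library than in wild type (54 against 194 counts, -1.34) and lower at 42 °C than at 37 °C (-2.49).

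Past the 3′ end of Lncenc1, in chr13:97500001-97505000, METTL3 over input was 0.86, 1.23, 1.77 and 1.19, and Drosha was 2.41 (337 against 117 counts), while DGCR8 with DSG was 0.48. METTL3 H5 in this window went from 2210 counts at 37 °C to 234 at 42 °C, and METTL3 H4 from 773 to 325. No test was run on these flanking windows, which were chosen after their values were seen.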
